A study of Mus musculus with 16 samples.

Results

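The kappa light chain variable genes (Igkv genes) are the pool of segments from which each kappa-expressing B cell takes the variable part of its light chain. In the table of normalized counts, 135 gene symbols started with Igkv, and 101 of them were chosen by a mean normalized count of at least 10 over the 8 RNA libraries. The 101 genes comprised 91 annotated as genes and 10 annotated as pseudogenes, in 19 families (the first number of the gene name), and the 34 genes left out comprised 9 genes and 25 pseudogenes. A normalized count is the reads of a gene scaled by the size factor of its library, and the share of a gene is its normalized count as a percent of the summed normalized count of the 101 genes in the same library. The members just inside the limit were Igkv4-62 with a mean of 10.2, Igkv12-40 with 10.8 and Igkv4-56 with 10.99, and those just outside were Igkv14-126-1 with 8.82, Igkv11-114 with 8.57 and Igkv20-101-2 with 8.48.

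Follicular (FO) B cells (CD21-low, CD23-high) and marginal zone (MZ) B cells (CD21-high, CD23-low) were sorted from spleens of young adult C57BL/6 mice, with 2 RNA libraries in each of 4 groups, WT FO, WT MZ, cKO FO and cKO MZ. WT mice are labelled with neither a floxed allele nor Cre, and cKO mice were Gtf2i fl/flxCD19cre+, in which a Cre active in the B lineage removes Gtf2i, the gene of the transcription factor TFII-I. All mice were untreated, and the labels do not say whether the libraries of a group or the FO and MZ libraries with the same number came from the same animal, so the p-values measure the spread between these libraries. Since the WT mice are labelled without Cre, the Cre allele and the loss of Gtf2i cannot be told apart in any comparison of genotypes.

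The libraries held between 21546552 and 25083552 reads on genes, of which between 24256 and 35399 fell on the 101 Igkv genes. Markers of B cells were high in each library, FO markers summed to at least 116820 normalized counts in FO and at most 47657 in MZ libraries, and MZ markers to at most 32415 in FO and at least 134280 in MZ libraries. T cell markers summed to at most 75.2 normalized counts in any library, and myeloid markers to between 453 and 887 in FO and between 623 and 2204 in MZ libraries, with the highest value in cKO MZ replicate 1. Gtf2i was between 1992 and 2864 normalized counts in WT and between 1523 and 1889 in cKO libraries. The genotypes also differed in sex-linked RNA. Xist was at 25930 or more in the WT libraries. It was at 14748 in replicate 1 of cKO FO and no more than 89.7 in the remaining cKO libraries. The Y-linked Ddx3y was at most 6.34 in WT and at least 2682 in cKO libraries. Sex therefore cannot be told apart from genotype in any comparison of cKO with WT. Replicate 1 of cKO FO held RNA of both sexes and replicate 1 of cKO MZ hardly any Xist, so their animals were not all the same.

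Each kappa chain is made when the RAG recombinase joins one variable gene to one of the joining genes (Igkj1 to Igkj5), which lie just before the constant gene Igkc. A cell that joins a new variable gene to a joining gene further down can replace its first kappa chain, and a variable gene whose strand is opposite to that of the joining genes is joined by inversion instead of deletion. The RNA of a variable gene depends on how many cells have joined it and on how much of it each cell makes, and in bulk RNA fewer cells and less RNA per cell cannot be told apart. MZ B cells are known for a light and heavy chain repertoire that differs from that of FO B cells.

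In GRCm38 the 101 genes lay on chromosome 6 between 67609713 and 70704177, and Igkj1 lay beyond them at chr6:70722562-70722599. The distances to Igkj1 ran from 18.4 kb for Igkv3-1 to 3112 kb for Igkv1-135, and 37 genes were on the strand of Igkj1 and 64 on the opposite strand. Recombination needs a signal directly after the variable gene, a heptamer (consensus CACAGTG), a spacer of 12 bases and a nonamer (consensus ACAAAAACC). The signals below are those of the most abundant genes and of the genes on which the comparisons turn, with that of Igkv1-108 as the neighbour of Igkv2-107. They were read 5′ to 3′ along each gene's own strand from the RefSeq GRCm38.p6 genome, in the 28 bases after the annotated end, and capitals mark the positions of the heptamer and the nonamer.
Igkv19-93 (highest mean share; chr6:68736269-68736296, minus strand): CACAGTGatacaaatcataACAAAAACC
Igkv10-96 (chr6:68631935-68631962, minus strand): CACAATGatataagtcataACATAAACC
Igkv1-135 (farthest from Igkj1; chr6:67610509-67610536, plus strand): CACAGTGattcagacccgaACAAAAACT
Igkv14-111 (chr6:68256870-68256897, plus strand): CACAGTGagacaagtcataACATAAACC
Igkv1-117 (chr6:68121828-68121855, plus strand): CACAGTGatacagaccctaACAAAAATA
Igkv6-15 (chr6:70406441-70406468, minus strand): CACAGTActtcagcctcctACATAAACC
Igkv8-21 (chr6:70314867-70314894, minus strand): CACAGTGcttcagtctcctACACAAACC
Igkv2-109 (chr6:68303159-68303186, plus strand): CACACTGatacagccctgaACAAAAACA
Igkv1-108 (pseudogene; chr6:68312360-68312387, plus strand): CACAGTGatgcagaccttaACAAAAATG
Igkv2-107 (pseudogene; chr6:68326753-68326780, plus strand): CGCAGTGatacagccttgaACAAACCCC
Igkv4-63 (chr6:69377916-69377943, minus strand): CACAGTGatacagactggaAAAAAACCT
Igkv6-17 (chr6:70371994-70372021, plus strand): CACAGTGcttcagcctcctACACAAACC
Igkv3-4 (chr6:70672378-70672405, plus strand): CACAGTGctccagggctgaACAAAAACC

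The 101 signals held 64 distinct sequences. The signal of Igkv3-4 was found in all 7 genes of family 3 and in 0 other members, and the signal of Igkv6-17 in 7 members. An exact heptamer followed 85 of the 101 members (84.2%), 15 of the 34 Igkv genes below the limit (44.1%) and 6 of the 25 annotated Igkv genes, all pseudogenes, that were not in the table (24.0%). Both the heptamer and the nonamer were exact in 30 members, among them all 7 genes of family 3. Among the 25 members of highest mean share the heptamer was exact in 80%, and in the same percent of the 25 members of lowest share. Kappa promoters are known for the octamer ATTTGCAT, which binds Oct factors, and it was searched on both strands from 250 bases before to 50 bases after each annotated start. It was found in 72 of the 101 members (71.3%), between 46 and 109 bases before the start, and in 1.74% of 32851 RefSeq promoter windows of the same length. It was found in 28 of the 29 genes of family 4, in the 7 genes of family 3 and in 0 of the 18 genes of families 6 and 8. These are matches of letters in the reference genome, and no measurement of binding or cutting was made.

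Usage was broad, with no gene above 7.67% of the Igkv count in any library. The mean share over the 8 libraries ran from 0.0329% to 5.64% with a median of 0.494%, and 32 genes with a mean share of at least 1% held 76.6% of the count together, while 18 genes were below 0.1%. Igkv19-93 had the highest mean share, 5.64%, with 4.48% and 5.30% in WT FO, 5.74% and 6.87% in cKO FO, 5.07% and 5.55% in WT MZ, and 5.41% and 6.72% in cKO MZ libraries. Igkv10-96 followed with 4.97%, Igkv1-135 with 4.82%, Igkv14-111 with 4.56%, Igkv1-117 with 4.52%, Igkv6-15 with 4.16% and Igkv1-110 with 3.83%. The next were Igkv16-104 with 2.90%, Igkv12-46 with 2.79% and Igkv9-120 with 2.50%. The ranges of these neighbours over the libraries overlapped, Igkv10-96 reaching from 3.40% to 6.53% and Igkv1-135 from 3.02% to 7.67%. Per kb of exon Igkv19-93 was again first, with a mean normalized count of 4642 per kb, and Igkv10-96 second with 4177 per kb. The 95% Wilson interval of a gene's share in a library was at most 0.670 percentage points wide, and it covers counting error only.

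**Figure D1:**
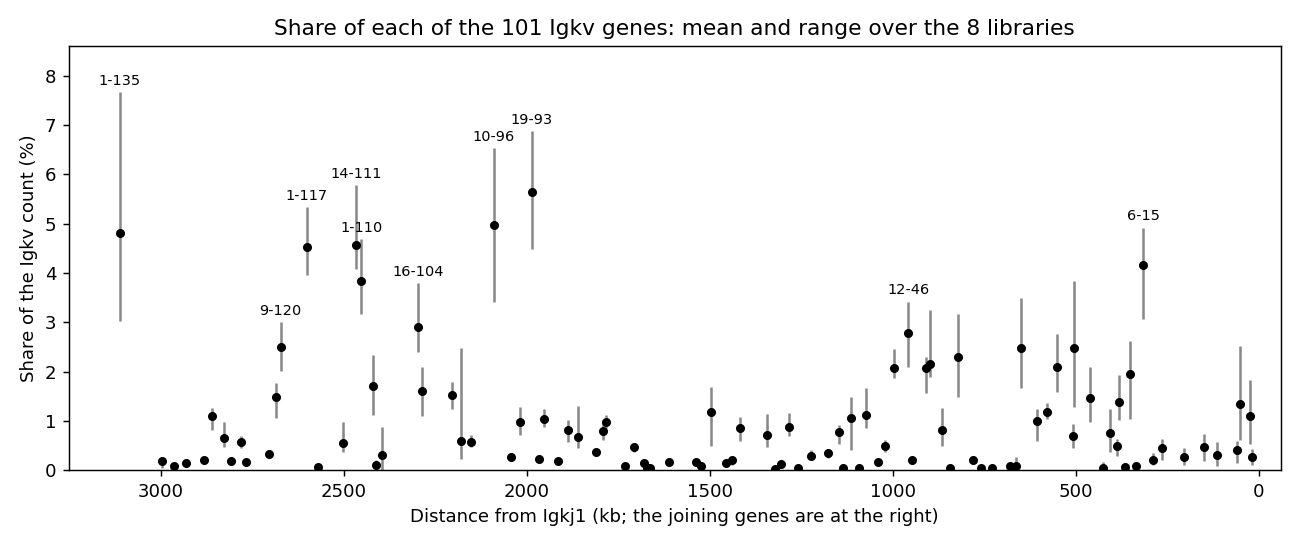
Share of the Igkv count (percent, y axis) against the distance from Igkj1 (kb, x axis, with the joining genes at the right) for the 101 genes, with points for the mean and lines for the lowest to highest of the 8 libraries. Names leave out the prefix Igkv and mark the 10 genes of highest mean share, of which 8 lie more than 1500 kb from Igkj1.

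The genes could be separated only in part by reads of 50 bases. Of the 101 members, 23 had no 50-base stretch in common with another annotated transcript, and in 66 fewer than 90% of such stretches were unique, with 25.7% in Igkv4-59 as the lowest. For Igkv1-117 50.1% were unique, with Igkv1-110 as the gene sharing most, and for Igkv10-96 67.4%, with Igkv10-94. How the counting treated reads that fit several genes is not given in the sources used here, so values of close relatives are uncertain one by one.

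The effective number of genes, the exponential of the Shannon entropy of the shares, is the number of equally used genes that would give the same diversity. It was 57.3 and 56.4 in WT FO, 53.6 and 50.8 in cKO FO, 53.6 and 55.4 in WT MZ, and 51.9 and 48.0 in cKO MZ libraries. In each subset the 2 cKO libraries were lower than the 2 WT libraries, with group means of 56.8 ± 0.61 and 52.2 ± 1.95 in FO and 54.5 ± 1.29 and 49.9 ± 2.78 in MZ B cells (SD, n = 2 each). The 10 most used genes of a library held 37.9% and 39.3% of its Igkv count in WT FO, 42.3% and 44.4% in cKO FO, 41.6% and 38.0% in WT MZ, and 43.0% and 46.5% in cKO MZ. No test was made of these values.

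The summed Igkv count was 30285 and 33003 in WT FO, 32488 and 34342 in cKO FO, 24081 and 32059 in WT MZ, and 27159 and 25012 in cKO MZ libraries. The mean difference between FO and MZ was 5452 normalized counts (exact permutation test within genotypes, two-sided p = 0.111) and that between cKO and WT was -106.5 (exact permutation test within subsets, two-sided p = 1), where 36 arrangements allow no p below 0.0556. The sum was 35.6 to 37.9 per 100 counts of Igkc, the kappa constant gene, in FO libraries and 36.03 to 40.2 in MZ libraries. Igkc itself was between 85112 and 92179 in FO and between 63382 and 82127 in MZ libraries, a log2 difference of 0.34 between FO and MZ across both genotypes (limma adjusted p = 0.0192, under 1.5-fold).

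Between FO and MZ B cells across both genotypes, more Igkv genes were higher in FO than in MZ. With genotype as a term, limma called 25 of the 101 members (24.8%) higher in FO, where 7.94% of all 14761 genes tested were called, and 2 members (1.98%) higher in MZ, where 11.6% of all genes were called. A gene was called at a Benjamini-Hochberg adjusted p over all genes tested of at most 0.05 and a difference of at least 1.5-fold on the scale of log2(normalized count + 1). In WT alone 8 members were higher in FO and 1 in MZ, against 4.62% and 7.41% of all genes. In cKO 11 were higher in FO and 2 in MZ, against 5.54% and 8.18%, and 8 members were called in both genotypes, 7 of them higher in FO, against 3.96% of all genes, and Igkv2-107 higher in MZ, against 6.3%. Without either WT FO library the count in WT was 3, and in cKO it was between 5 and 7 without any one of the 4 libraries of that comparison. The median log2 difference of the members was 0.37 and that of all genes tested 0.00452. The split depends on the scale, since the summed count was higher in FO in each genotype on average. With each Igkv gene taken as a share of the Igkv sum, 9 members were higher in FO and 6 in MZ across both genotypes, against 7.83% and 11.6% of all genes, 2 and 4 in WT, against 4.59% and 7.43%, and 3 and 3 in cKO, against 5.48% and 8.19%. Of the members, 94 had a mean of at least 10 in each of the 4 groups, and the other 7, Igkv1-108, Igkv4-56, Igkv4-60, Igkv4-62, Igkv5-37, Igkv8-22 and Igkv12-40, entered through the groups where they were higher. Over the 94 alone, a division made after seeing the data, limma called 23 higher in FO and 1 in MZ across both genotypes, 8 and 1 in WT, and 11 and 1 in cKO. Of the other 7, Igkv4-62 and Igkv5-37 were among the 25 and Igkv1-108 was among the 2.

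Among the genes higher in FO, Igkv10-96 had the smallest p. It was at 1698 and 1735 normalized counts for WT FO and 1894 and 2242 in cKO FO, and at 936 and 1090 in WT MZ and 1197 and 1202 in cKO MZ libraries. The FO and MZ libraries did not overlap, and the log2 difference was 0.77 ± 0.074 (SE, limma adjusted p = 7.37e-05). Igkv8-21 was at 376 and 335 in WT FO, 292 and 283 in cKO FO, 184 and 169 in WT MZ, and 101 and 113 in cKO MZ libraries. Each FO library was above each MZ library, with a log2 difference of 1.21 ± 0.12 (SE, limma adjusted p = 9.37e-05). Igkv13-85 was between 294 and 339 in FO and between 157 and 203 in MZ libraries (log2 difference 0.83, limma adjusted p = 0.000532), and Igkv6-32 between 849 and 1155 in FO and between 452 and 693 in MZ libraries (0.82, limma adjusted p = 0.00118). Igkv12-44 was between 691 and 786 in FO and between 471 and 574 in MZ libraries, a log2 difference of 0.47 (limma adjusted p = 0.000964) that stayed under 1.5-fold. As shares of the Igkv sum, Igkv8-21 was still called (0.94), while Igkv10-96 (0.50), Igkv13-85 (0.55) and Igkv6-32 (0.55) stayed past the p limit but under 1.5-fold, and Igkv12-44 (0.20) was past neither.

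The 25 genes higher in FO belonged to 11 families, with 10 in family 4, 3 in family 12 and 3 in family 3, and all were annotated as genes. Their log2 differences ran from 0.59 to 1.43. Of the 25, 19 were on the strand opposite to Igkj1, where 64 of the 101 members lie.

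In the opposite direction, the pseudogene Igkv2-107 was higher in MZ, and values of its neighbour Igkv1-108 are given beside it. Igkv2-107, at chr6:68326098-68326752 on the plus strand, was at 17.96 and 23.8 normalized counts for WT FO and 19.03 and 4.03 in cKO FO, and at 210 and 196 in WT MZ and 143 and 84.6 in cKO MZ libraries. The lowest MZ library was above the highest FO library, and the log2 difference was -3.35 ± 0.40 (SE, limma adjusted p = 0.000252). Igkv1-108, which lies 13.7 kb before Igkv2-107, was at 3.99 and 12.4 for WT FO and 4.48 and 0 for cKO FO, and at 48.2 and 54.3 in WT MZ and 58.8 and 42.3 in cKO MZ libraries. It reached a mean of 10 only through the MZ libraries, so its values are a description and its difference is not used as a result. All 50-base stretches of Igkv2-107 were unique among annotated transcripts, and 83.9% of those of Igkv1-108. The signal printed above for Igkv2-107 differed from the consensus heptamer at 1 position and from the consensus nonamer at 2 positions, that of Igkv1-108 held an exact heptamer, and a pseudogene can be transcribed without coding for a working chain.

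Igkv2-109, the next gene on the far side of Igkv1-108, is annotated as a gene. It was between 371 and 447 normalized counts in FO and between 510 and 636 in MZ libraries, a log2 difference of -0.50 (limma adjusted p = 0.00616) that was under 1.5-fold. Taken as a share it was called, at -0.77 on the log2 scale (limma adjusted p = 4.00e-04), with 1.12% to 1.42% of the Igkv count in FO and 1.97% to 2.34% in MZ libraries. Igkv8-24 was between 438 and 685 in FO and between 548 and 954 in MZ libraries (-0.49, limma adjusted p = 0.0476), where cKO replicate 2 was the lowest library of both subsets. Igkv8-27 was between 480 and 633 in FO and between 580 and 796 in MZ libraries, which overlapped (-0.29, limma adjusted p = 0.0828). Both FO libraries were above both MZ libraries in each genotype for 33 members (32.7%), against 21.6% of all genes. Both MZ libraries were above both FO libraries in each genotype for 6 members (5.94%), against 22.3%. These orders are of normalized counts, whose Igkv sum was higher in FO on average, and were not counted on shares. The 33 include Igkv4-62 and Igkv5-37 and the 6 include Igkv1-108, which entered through the groups where they were higher.

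**Figure D2:**
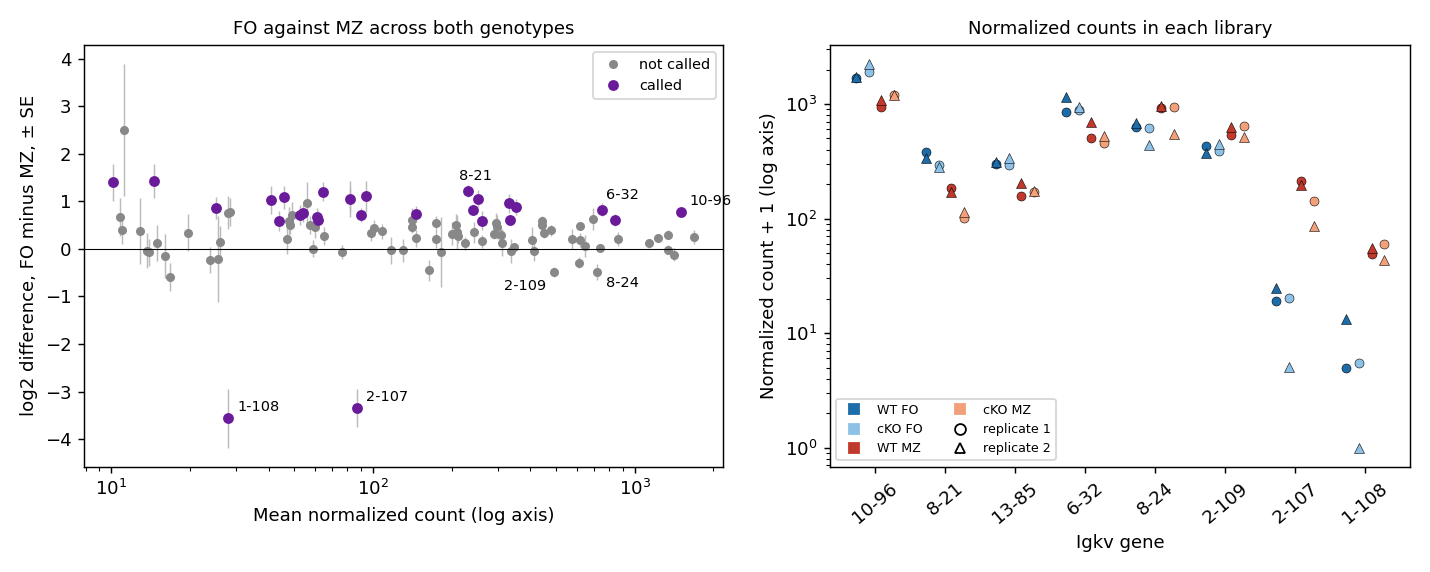
Left, the log2 difference between FO and MZ with its standard error (y axis) against the mean normalized count (x axis, log axis) for the 101 genes, called genes in purple; right, normalized count plus 1 (y axis, log axis) of 8 genes in each of the 8 libraries, coloured by group. The pseudogene 2-107 stands below -3 on the left and is separated by subset on the right. The points of 1-108 are a description only, since it reached the limit only through the MZ libraries.

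By family, families 2, 8 and 9 had higher shares in both MZ libraries than in both FO libraries of each genotype, and families 10, 12, 13 and 17 the reverse. Family 2, with 4 members, held 1.97% and 1.65% of the Igkv count in WT FO, 1.71% and 1.72% in cKO FO, 3.78% and 3.63% in WT MZ, and 3.60% and 2.98% in cKO MZ libraries. Its share in FO was 0.489 times that in MZ in WT and 0.520 times in cKO. Family 8, with 10 members, held 8.69% and 8.46% in WT FO, 8.20% and 7.20% in cKO FO, 10.96% and 10.6% in WT MZ, and 10.5% and 8.53% in cKO MZ libraries. Both families thus stood higher in MZ, although Igkv8-21 of family 8 was higher in FO. Family 10, with 3 members including Igkv10-96, held 6.80% and 6.43% in WT FO, 7.12% and 8.07% in cKO FO, 4.91% and 4.64% in WT MZ, and 5.52% and 6.15% in cKO MZ libraries. The order of family 10 turned without the most abundant gene of each library, which was Igkv10-96 in replicate 1 of WT FO and of cKO FO alone, where the means were 4.03% in WT FO, 5.02% in cKO FO, 5.06% in WT MZ and 6.25% in cKO MZ. The other 6 families named kept their order of means under that alternative. Family 12, with 7 members, was between 7.88% and 8.43% in FO and between 5.84% and 6.98% in MZ libraries. The interval of a family's share in a library was at most 0.979 percentage points wide by counting error, and family shares were not tested.

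**Figure D3:**
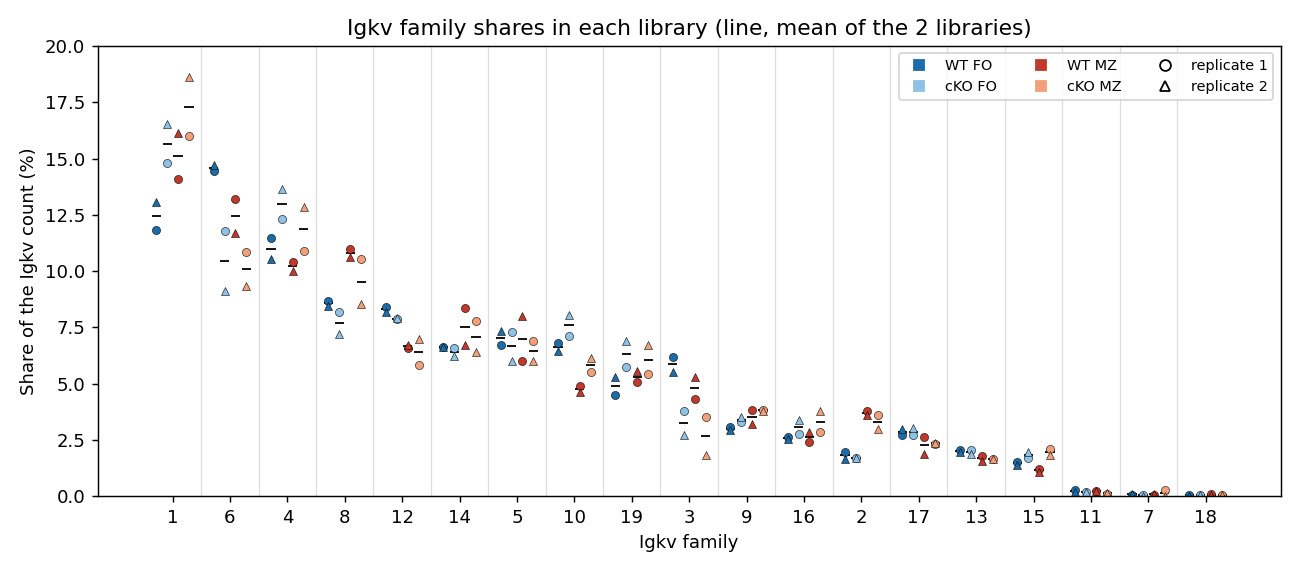
Share of the Igkv count (percent, y axis) of each of the 19 families (x axis, ordered by mean share) in each of the 8 libraries, coloured by group with a line at the group mean. Family 2 stands higher in MZ, family 10 higher in FO, and families 3 and 6 lower in cKO than in WT in each subset.

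Genes on the strand of Igkj1, which rearrange by deletion, held 40.9% and 40.7% of the count in WT FO, 40.5% and 41.3% in cKO FO, 44.9% and 43.6% in WT MZ, and 45.2% and 44.3% in cKO MZ libraries. Each MZ library was thus above each FO library, and the genotypes overlapped in each subset. The 10 pseudogenes held between 0.513% and 0.732% in FO and between 0.956% and 1.59% in MZ libraries. They include Igkv2-107 and Igkv1-108, whose values are given above, and Igkv1-108 reached the limit only through the MZ libraries. The sum is thus no measure of pseudogenes as a class. Markers of other cells were also summed by subset. Plasma cell markers summed to between 5004 and 8049 normalized counts in FO and between 6414 and 12825 in MZ libraries, which overlapped, and went in both directions, with Sdc1 (2.99) and Fkbp11 (1.89) called higher in FO and Mzb1 (-2.46), Prdm1 (-1.79) and Ighg2b (-1.05) higher in MZ, as log2 differences by limma. B-1 cell markers summed to between 427 and 616 in FO and between 849 and 1218 in MZ libraries. Markers of transitional B cells summed to between 1700 and 2508 in FO and between 636 and 1077 in MZ libraries. The transitional sum lacks Rag2, which was not in the table. All 11 plasma cell and all 6 B-1 markers were in the table, and Tnfrsf17, a defining plasma cell marker, was at most 8.15. Their part in the Igkv differences was not tested.

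Between cKO and WT, no Igkv gene was called by limma or edgeR. Limma called 0 of the 101 members in FO, in MZ or across the subsets together, against 0.0677%, 0.0339% and 0.149% of all genes tested, with an unadjusted p under 0.05 for 15, 10 and 29 members (14.9%, 9.9% and 28.7%) and for 2.59%, 4.04% and 8.33% of all genes. The edgeR quasi-likelihood test called 0 members in each of these comparisons. DESeq2, the third tool, called Igkv3-4 lower in cKO in MZ (DESeq2 adjusted p = 0.0244), against 0.325% of all genes, and 0 members in FO, against 0.169%. Across both subsets DESeq2 called Igkv3-4 (adjusted p = 0.00134) and Igkv3-10 (adjusted p = 0.0137) lower and Igkv4-63 (adjusted p = 0.000182) higher in cKO, against 0.528% of all genes. For the interaction of genotype and subset limma, edgeR and DESeq2 called 0 members, against 0% of all genes by limma, and 1 member, Igkv4-61, had an unadjusted p under 0.05 by limma.

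The order of the libraries was then counted over the members, with no test. Each cKO library was lower than each WT library, in FO as in MZ, for 13 members (12.9%), against 5.46% of all genes. Each was higher for 9 members (8.91%), against 3.88%. Igkv5-37, which entered through the groups where it was higher, is among the 13. The genes lower in cKO lay mostly near Igkj1, with 10 of the 13 within 500 kb of it and 3 among the other 83 members, while all 9 that were higher lay beyond 500 kb.

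Igkv3-4, 50.2 kb from Igkj1, was at 511 and 564 normalized counts for WT FO, 336 and 215 in cKO FO, 379 and 805 in WT MZ, and 268 and 153 in cKO MZ libraries. The cKO libraries were the lowest of each subset, and the log2 difference across both subsets was -1.22 ± 0.27 (SE, limma adjusted p = 0.268). Igkv3-10 was at 219.5 and 219.8 in WT FO, 129 and 96.6 in cKO FO, 134 and 178 in WT MZ, and 105 and 44.3 in cKO MZ libraries (-1.07 ± 0.25 SE, limma adjusted p = 0.302). Igkv3-5 was at 170 and 153, 99.7 and 51.3, 144.5 and 146, and 124 and 54.7 in the same order of groups (-0.99 ± 0.28 SE, limma adjusted p = 0.441). In these 3 genes cKO replicate 2 was the lowest library of each subset. The other 4 genes of family 3, Igkv3-1, Igkv3-2, Igkv3-7 and Igkv3-12, had log2 differences between -0.86 and -0.47 (limma adjusted p between 0.56 and 0.669). The 7 genes of family 3 are the 7 members nearest Igkj1 and share one recombination signal, printed above.

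Further up the locus, Igkv8-21 was lower in cKO in both subsets, with the values given above (-0.51 ± 0.12 SE, limma adjusted p = 0.302). Igkv6-17 was at 784 and 783 in WT FO, 560 and 354 in cKO FO, 630 and 643 in WT MZ, and 567 and 297 in cKO MZ libraries (-0.72 ± 0.20 SE, limma adjusted p = 0.436). Both genes stood lower in each cKO library than in each WT library of the subset.

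In the other direction, Igkv4-63 had the smallest p. It was at 152 and 155 normalized counts for WT FO, 299 and 332 in cKO FO, 136 and 152 in WT MZ, and 186 and 287 in cKO MZ libraries. No cKO library overlapped the WT libraries, and the log2 difference was 0.86 ± 0.15 (SE, limma adjusted p = 0.103). Without cKO MZ replicate 1 it was called (1.02, limma adjusted p = 0.0299). Igkv15-103 was at 461 and 465, 554 and 670, 293 and 351, and 570 and 463 in WT FO, cKO FO, WT MZ and cKO MZ libraries (0.54 ± 0.11 SE, limma adjusted p = 0.221). Igkv1-135, the gene farthest from Igkj1, was at 914 and 1204, 1442 and 1895, 1126 and 1302, and 1498 and 1918 (0.57 ± 0.13 SE, limma adjusted p = 0.275). By DESeq2 both passed the p limit across both subsets but stayed under 1.5-fold. The values were 0.546 for Igkv15-103 (DESeq2 adjusted p = 0.00654) and 0.580 for Igkv1-135 (DESeq2 adjusted p = 0.00555). Igkv10-96 (0.26, limma adjusted p = 0.441) and Igkv1-110 (0.30, limma adjusted p = 0.479) completed the 5 genes of smallest p on this side, and both were higher in each cKO than in each WT library of a subset.

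**Figure D4:**
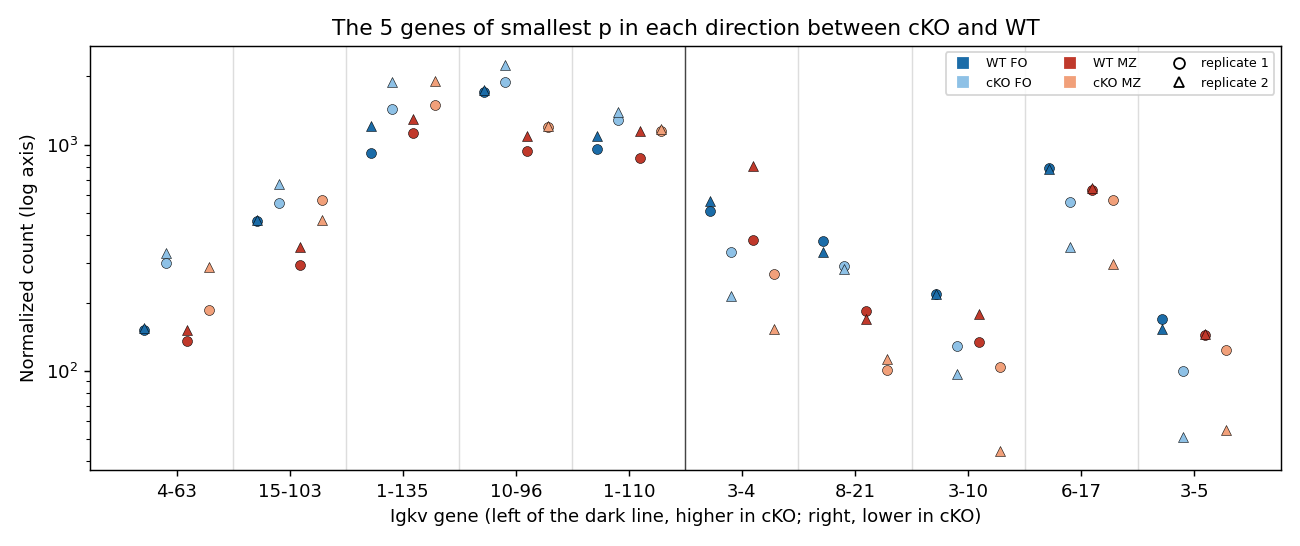
Normalized count (y axis, log axis) in each of the 8 libraries for the 5 genes of smallest p in each direction between cKO and WT (x axis), coloured by group and shaped by replicate. Left of the dark line cKO stands above WT in each subset, and right of it cKO stands below WT, with cKO replicate 2 lowest for the genes of family 3 and Igkv6-17.

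The locus was then divided into windows of 500 kb by distance from Igkj1, a division chosen after the values of the genes had been seen, so its values are a description with no test. The 18 members in the nearest window, of families 3, 6 and 8, held 19.8% and 18.3% of the Igkv count in WT FO, 14.6% and 10.5% in cKO FO, 17.4% and 16.5% in WT MZ, and 14.3% and 10.2% in cKO MZ libraries. The cKO libraries were below the WT libraries of both subsets, and cKO replicate 2 stood further down than replicate 1 in FO and in MZ. The mean share in cKO was 0.659 times that in WT in FO and 0.723 times in MZ B cells. Without cKO replicate 2 of the subset these ratios were 0.767 and 0.845, and without replicate 1 they were 0.552 and 0.601. All 18 genes had a lower mean share in cKO in FO and in MZ, where 57 and 58 of the 101 members did. The single libraries were less uniform in MZ. Each cKO library had a lower share than each WT library for 16 of the 18 genes in FO and for 6 in MZ. Among the cKO libraries, replicate 2 was below replicate 1 for 16 genes in each subset. Among the WT libraries it was lower for 11 genes in FO and 13 in MZ. The median log2 difference of the 18 genes in normalized counts was -0.55, where that of the other 83 members was 0.017. For Igkv8-22, nearly absent from the MZ libraries as given below, the order in MZ carries little weight.

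The next window, from 500 to 1000 kb with 19 members, held 23.3% and 24.6% in WT FO, 23.2% and 20.8% in cKO FO, 22.7% and 24.6% in WT MZ, and 22.4% and 21.0% in cKO MZ libraries. Its shares in cKO were 0.919 times those in WT in both subsets. From 1000 to 1500 kb, where all 18 members belong to family 4, the share in cKO was 1.24 times that in WT in FO and 1.18 times in MZ B cells, with cKO libraries between 8.15% and 10.4% and WT libraries between 7.35% and 8.39%. From 2000 to 2500 kb, with 13 members including Igkv10-96, Igkv14-111 and Igkv1-110, it was 1.11 and 1.09 times. From 1500 to 2000 kb, with 17 members, it was 1.12 and 1.05 times, and from 2500 to 3000 kb, with 15 members, 1.09 and 1.03 times. In these last windows the genotypes overlapped in MZ. Shares are parts of one sum, so lower shares in some windows go with higher shares in others. Igkv1-135 alone, beyond 3000 kb, held 3.02% and 3.65% in WT FO, 4.44% and 5.52% in cKO FO, 4.68% and 4.06% in WT MZ, and 5.52% and 7.67% in cKO MZ libraries. By family the shares were lower in cKO in each subset for family 3, at 0.555 times WT in FO and in MZ, for family 6, at 0.717 and 0.809 times, for family 8, at 0.898 and 0.883 times, and for family 11, at 0.774 and 0.624 times, and higher for families 4, 10 and 15. Family 11 has 1 member, Igkv11-125, which lies 2809 kb from Igkj1, outside the nearest windows. Family 3 held 6.20% and 5.51% in WT FO, 3.77% and 2.73% in cKO FO, 4.34% and 5.27% in WT MZ, and 3.50% and 1.84% in cKO MZ libraries. The sex-linked RNAs given above differ between the same libraries, so the part of sex cannot be told apart from that of genotype.

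**Figure D5:**
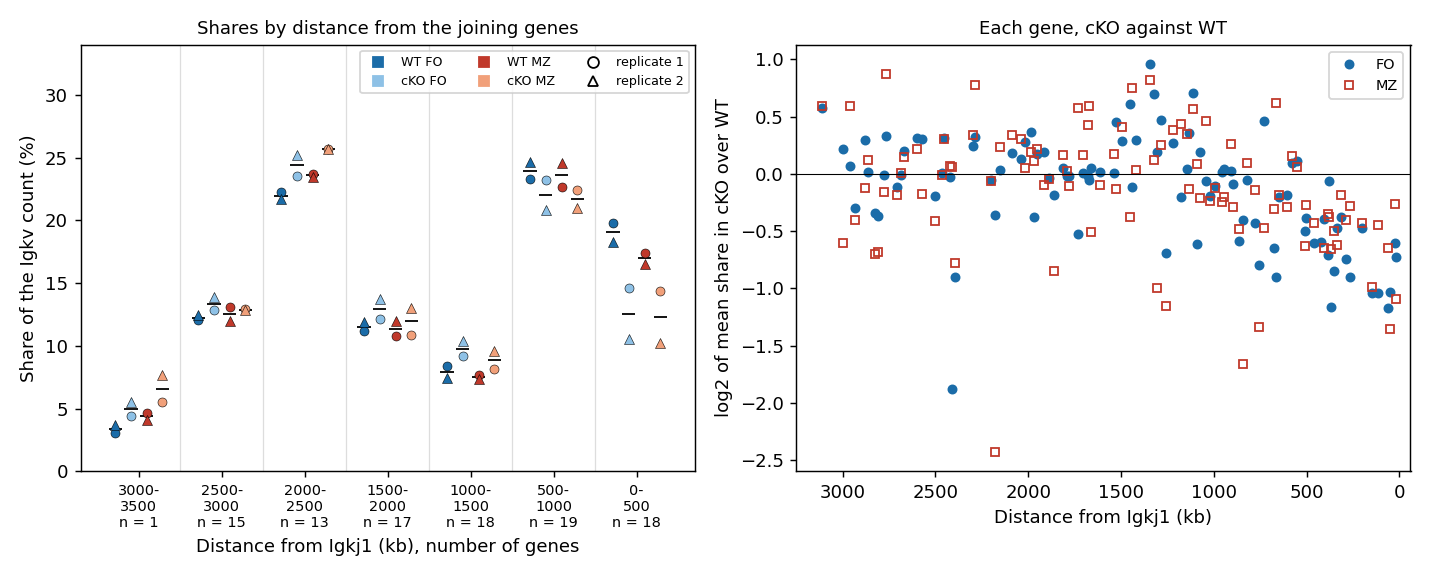
Left, share of the Igkv count (percent, y axis) in windows of 500 kb from Igkj1 (x axis, nearest at the right) in each of the 8 libraries, with a line at each group mean; right, the log2 ratio of a gene's mean share in cKO to that in WT (y axis) against its distance from Igkj1 (kb, x axis), for FO and MZ, leaving out ratios with a mean of 0. In the nearest window the cKO libraries sit between 10.2% and 14.6% and the WT libraries between 16.5% and 19.8%. All genes plotted there lie below 0 in both subsets, where Igkv8-22 is left out in MZ.

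Some genes differed most between the 2 libraries of one group. Igkv1-99 was at 55.9 normalized counts in replicate 1 of WT MZ and 796 in replicate 2, 14.3-fold apart, where it held 0.232% and 2.48% of the Igkv count. In the other 6 libraries it was between 63.9 and 186, and the 75.8 and 186 of WT FO were 2.46-fold apart with the same replicate higher. Igkv1-88 was at 117 and 418 in WT MZ and between 114 and 257 elsewhere. Igkv5-43 was at 458 and 1042 in WT MZ, and Igkv4-55 at 357 and 134 in WT FO. Among genes with a group mean of at least 100, the 2 libraries differed more than 2-fold for 9 of 57 genes in WT MZ, 2 of 63 in WT FO, 0 of 58 in cKO FO and 2 of 53 in cKO MZ. WT MZ replicate 2 also held more RNA of Jchain, the joining chain of secreted IgM and IgA, with 3692 normalized counts against 305 in replicate 1, and their relation to Igkv1-99 was not tested. The pseudogene Igkv8-22, singled out after its values were seen, was at 51.9 in replicate 1 of WT FO, 36.9 in replicate 1 of cKO FO and no more than 0.963 elsewhere.

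The rest of the light chain genes were described from a list. It held Igkc, the 5 joining genes, the lambda genes Iglc1 to Iglc3 and Iglv1 to Iglv3, and Rag1. By limma 0 of these 13 were called between FO and MZ or between cKO and WT across the other factor. Rag2, the partner of Rag1, was not in the table of normalized counts. Each joining gene had a log2 difference between 0.15 and 0.22 between FO and MZ and between -0.28 and -0.088 between cKO and WT (limma adjusted p of at least 0.302). Iglv2, a lambda variable gene, was at 355 and 588 normalized counts for WT FO, 287 and 81.5 in cKO FO, 997 and 1137 in WT MZ, and 945 and 111 in cKO MZ libraries. It was thus lowest in cKO replicate 2 of both subsets, the libraries with the lowest share of kappa genes near Igkj1, and its log2 difference between cKO and WT was -1.64 ± 0.62 (SE, limma adjusted p = 0.547). Iglv1 was also lowest in these libraries, at 746 in FO and 532 in MZ, against 1019 to 2462 in the other 6. The relation of Iglv2 and Iglv1 to the share of kappa genes near Igkj1 was not tested. The lambda constant genes summed to between 18.5 and 39.2 per 100 counts of Igkc, with overlapping genotypes in each subset.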

How the data were processed

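Total RNA of FACS-sorted FO and MZ B cells was depleted of ribosomal RNA and sequenced as single reads. According to the submitters' processing notes and the paper, the authors aligned the reads to mm10 with HISAT2, counted them on genes with featureCounts and htseq-count and analysed them with DESeq2; versions and the handling of reads that fit several genes are not given in the sources used here. The authors deposited the signal as a table of normalized counts of 27928 genes in 8 libraries, each value being whole reads divided by a size factor; 100% of values gave whole reads, and 256343 blank lines were left out. Positions are from GENCODE M21 and sequences from RefSeq GRCm38.p6.

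Log2(normalized count + 1) of the 14761 genes with a mean of at least 10 was fitted with limma 3.58.1 (trend) in R 4.3.3, in one fit of the 8 libraries, additive for comparisons across both genotypes or subsets. The limits were 0.05 for the p adjusted over all genes (Benjamini-Hochberg) and 1.5-fold. DESeq2 1.42.0 and edgeR 4.0.16 on the recovered reads were alternatives, besides TMM factors, shares of the Igkv sum, other pseudocounts, filters and fold limits, fits of 4 libraries, family shares without the most abundant gene of each library or with every Igkv gene in the table, replicate blocks and each library left out. Totals were compared by exact permutation within strata (scipy 1.17.1); shares and diversity have no test. Named genes were the 10 of highest mean share, the 5 of smallest p in each direction between FO and MZ and between cKO and WT, the 5 of largest ratio between the libraries of a group and the 3 on each side of the limit; Igkv8-22, Igkv4-61 and other members named beside counts or families were chosen after their values were seen. The members, lists and tests were chosen with earlier results of these data known. The tests were tried on simulated counts. The 8 ATAC-seq samples were not analysed here.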

Additional observations from a re-analysis of the deposited data

Results flagged for a closer look

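Igkv9-120 stood out because its normalized counts moved in opposite directions between FO and MZ in the 2 genotypes. Its mean share of the Igkv sum did not, with log2 ratios of FO to MZ of -0.28 in WT and -0.22 in cKO. Normalized counts of 674 and 666 for WT FO stood against 691 and 731 for WT MZ, and 769 and 865 for cKO FO against 734 and 750 for cKO MZ, so that FO was 0.942 times MZ in WT and above MZ in cKO. The interaction of genotype and subset was -0.22 ± 0.14 on the log2 scale (SE, limma adjusted p = 1), so the difference between the genotypes did not pass the test.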

How the results depend on the processing

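Between FO and MZ across both genotypes, 27 members were called, 15 with shares of the Igkv sum, 11 at 2-fold, 38 with no fold limit, 24 over members with every group mean at least 10 (added after seeing the data), 29 with a replicate block, 32 with a replicate block by genotype and between 20 and 33 with a library left out. In WT 9 were called, 4 in a fit of the 4 libraries compared, 5 at 2-fold, 11 with a replicate block, 17 with a replicate block by genotype and between 3 and 11 with a library left out. In cKO 13 were called, 6 with shares, 6 at 2-fold, 17 with a replicate block, 25 with a replicate block by genotype and between 5 and 18 with a library left out. Between cKO and WT 0 were called, 1 in MZ and 3 across both subsets by DESeq2, and between 0 and 1 across both subsets with a library left out. The WT count was 3 without either WT FO library, the cKO count was 6 without either cKO FO library, 7 without cKO MZ replicate 1 and 5 without replicate 2, and the 1 gene called between cKO and WT, without cKO MZ replicate 1, was Igkv4-63. The replicate numbers were not taken to pair the libraries, since the labels do not say whether the same number means the same animal. Deviations of same-numbered FO and MZ libraries over all genes correlated at 0.591 in WT and -0.00151 in cKO. Over the members they correlated at 0.443 in WT and 0.317 in cKO. A pairing, in WT above all, is thus possible and is taken up only by the replicate blocks. With the numbers of cKO MZ exchanged, an alternative chosen after seeing the data, 0 members were called in MZ and 0 across both subsets. Across both genotypes, 1156 of all 14761 genes were called higher in FO and 1709 in MZ with shares. These counts were 590 and 1114 at 2-fold, and 1327 and 1872 with a replicate block by genotype. With both directions together, members were called no more often than all genes in WT, in cKO, with shares and at 2-fold. They were called more often across both genotypes at the main limits and with that block. The difference of the Igkv total between cKO and WT changed sign as a percent of all counts (0.000845 percentage points) and lay between -2101 and 1888 with a library left out (572.8 without WT FO replicate 2, 356.8 without cKO FO replicate 1, 1888 without WT MZ replicate 2 and 430 without cKO MZ replicate 2), and that between FO and MZ lay between 3457 and 7446. The effective number in WT FO was 58.0 with every Igkv gene in the table. Without the most abundant gene of each library 31 mean family shares moved by more than the spread between libraries and 45 did not, and 7 did and 69 did not with every Igkv gene included. The cause of these changes was not tested. Among the named genes and the alternatives run, 0 values changed sign, and between FO and MZ across both genotypes 7 came to pass and 6 ceased to pass, while between cKO and WT across both subsets 4 came to pass. Counting error leaves a gene's share in a library uncertain by an interval of at most 0.670 percentage points.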
